A study of Caenorhabditis elegans with 9 samples.

Results

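The comparison is between 2 libraries labelled lem-2(tm1582) emr-1(RNAi) and 2 libraries labelled lem-2(tm1582), which were chosen by their genotype labels and make up 4 of the 9 libraries in the series. The question it addresses is what knockdown of emr-1 adds in Caenorhabditis elegans that already carry a lem-2 deletion. All 9 libraries were made from poly(A) RNA of whole animals grown for 53 h at 20 °C, by which time the cultures were rich in young adults that did not yet hold eggs. The RNAi-labelled animals were homozygous for lem-2(tm1582) and ate bacteria that made double-stranded RNA of the whole emr-1 cDNA. The methods describe feeding from the earliest larval stage, in medium with ampicillin and 1 mM IPTG, the inducer used for the bacteria. The labels place both groups in strain BN19, and the methods also name BN19 as the strain fed for emr-1 RNAi. The list of sequenced samples in the methods, however, has only 2 of BN19, and 2 of BN24, which it ties to no group. By that list the 4 libraries compared cannot all be BN19, so it is not settled that both groups are the same strain. Control bacteria made 185 bp of vector sequence, and it is not spelled out that the lem-2(tm1582) cultures ate them. The other libraries are 2 of the deletion mutant emr-1(gk119) and 3 of wild type (N2), and they enter the fit for the shared spread. The methods describe cultures of about 40000 synchronized animals and do not say that each library had a culture of its own. RNA came from many whole animals, so germline, gut, skin, muscle and neurons are mixed in every value.

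EMR-1 is the worm emerin and LEM-2 is the worm MAN1-like protein. Both are LEM-domain proteins of the inner nuclear membrane, both bind lamin (LMN-1), and through the LEM domain they bind the chromatin protein BAF-1. Loss of either alone leaves worms viable, while loss of both disturbs nuclear division in the early embryo. In people, mutations in emerin or in lamin A cause Emery-Dreifuss muscular dystrophy.

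The deposited value of a transcript is normalized coverage, that is, the median read depth over its exons after quantile normalization of exons across the 9 libraries. Of 49395 transcripts, 24939 had a mean coverage of at least 1 and were tested, and the transcripts of a locus were averaged to give 19567 loci for gene-level results. Among the 8110 loci whose coverage averaged 20 or more, libraries were compared by the median size of their log2 differences. This distance was 0.21 between the 2 RNAi-labelled libraries and 0.18 between the 2 lem-2(tm1582) libraries. Between a library of one group and a library of the other it was 0.47 to 0.66. Every distance between the groups was thus larger than the distance between replicates. Nothing says that the replicates were grown apart, so p-values measure the spread between these libraries, which may be technical.

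Coverage of the targeted gene went against its label. emr-1 (chromosome I, 1842445 to 1843227 of WBcel235, 3 exons) had a coverage of 134.8 and 73.5 in the RNAi-labelled libraries, against 44.5 and 44.4 in the lem-2(tm1582) libraries. Both RNAi-labelled values were the higher ones, and the log2 change was 1.15 ± 0.45 (SE; limma, adjusted p = 0.12). In emr-1(gk119), by contrast, coverage was 0 and 1.5, against 52.1, 44.6 and 60.5 in wild type. Reads from the fed double-stranded RNA, which covers the whole cDNA, may fall on the same exons, and their part in these values was not tested. Coverage therefore gives no measure of EMR-1 depletion. The methods state that a portion of the culture, kept for a further day, showed the embryonic lethality that loss of both proteins brings, which the files do not measure. To keep to the files, every direction below is that of the libraries as labelled.

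**Figure D1:**
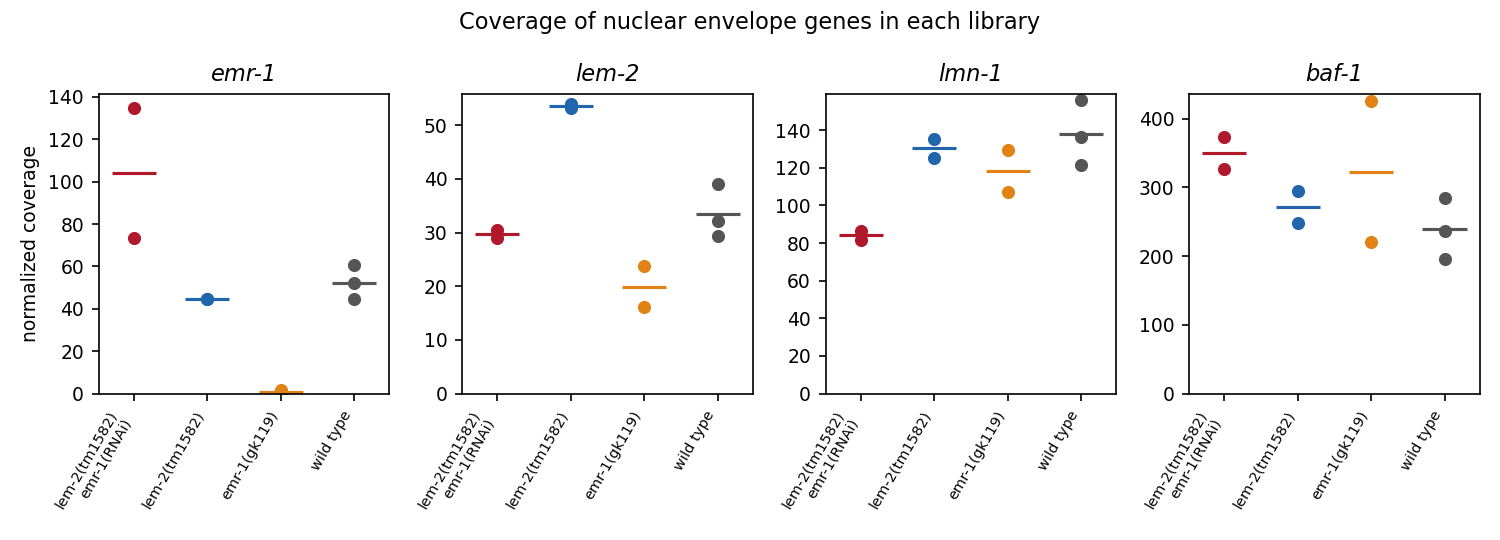
Normalized coverage (vertical axes, linear from 0) of emr-1, lem-2, lmn-1 and baf-1 in each of the 9 libraries, with 1 point per library and a bar at the group mean. emr-1 lay at 134.8 and 73.5 in the RNAi-labelled libraries, above both lem-2(tm1582) libraries, while lem-2 and lmn-1 lay below them.

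lem-2 and lmn-1 were called lower, and baf-1 was not called. lem-2 (chromosome II, 14063450 to 14066646, 3 exons) had a coverage of 28.9 and 30.5 in the RNAi-labelled libraries, against 54 and 53.2 in the lem-2(tm1582) libraries, and the log2 change was -0.83 ± 0.22 (limma, adjusted p = 0.0445). Whole-transcript coverage does not show whether the deleted part of the allele is read, so these values do not check the deletion. lmn-1, the only lamin gene of the worm, had a coverage of 81.7 and 86.4 in the RNAi-labelled libraries, against 125.3 and 135.2 in lem-2(tm1582), a fall of 0.63 on the log2 scale (limma, adjusted p = 0.0446). baf-1 did not pass the test, with 372.6 and 326.3 in the RNAi-labelled libraries, against 247.9 and 295.0 in lem-2(tm1582).

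With emr-1 RNAi, 1994 of 19567 loci were called higher (10.2% of those tested) and 1227 were called lower (6.27%), at a Benjamini-Hochberg adjusted p under 0.05 in limma. Over transcripts the numbers were 2578 higher (10.3%) and 1767 lower (7.09%) of 24939. The 2 RNAi-labelled libraries both lay above both lem-2(tm1582) libraries at 41.9% of loci and both lay below at 21.8%, so groups that do not overlap are common here. The median log2 change over all loci was 0.25, which is the level against which each gene group below should be read. The upper quartile of coverage over transcripts was 16.86 and 16.25 in the RNAi-labelled libraries, against 13.6 and 13.9 in the lem-2(tm1582) libraries (exact permutation test, two-sided, p = 0.333, which is also the lowest p that 2 libraries a group can give).

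The counts of calls rest on few libraries and on the scaling. After a second quantile normalization, of transcripts, the median of all loci moved to -0.01 and the split of calls turned to 1533 loci higher and 1838 lower (1976 and 2613 transcripts). With the lem-2(tm1582) replicate 2 library left out, limma called no locus in either direction, although 4422 loci had an unadjusted p under 0.05, against 6604 with all libraries. Without RNAi-labelled replicate 1 it called 4 loci higher and none lower, with 4551 loci at an unadjusted p under 0.05. Without RNAi-labelled replicate 2 the counts were 508 and 544, and without lem-2(tm1582) replicate 1 they were 362 and 316. Leaving out wild-type replicate 1, which enters only the shared spread, gave 1341 and 743. No call below stood in all of these fits, so fold changes and the values in each library carry more than the adjusted p.

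**Figure D2:**
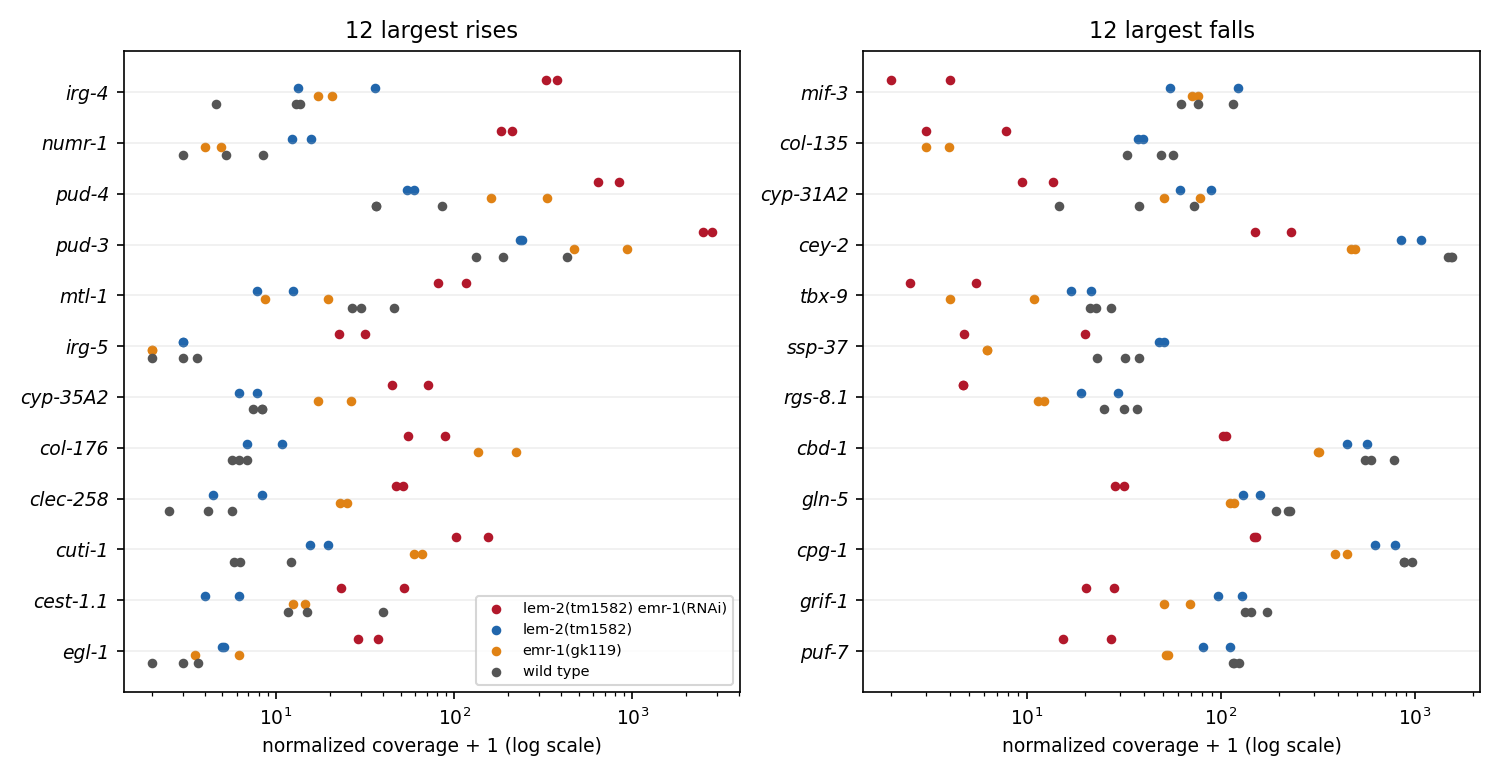
Normalized coverage + 1 on a log axis in each of the 9 libraries, for the 12 named protein-coding genes with the largest rises (left) and the 12 with the largest falls (right) in the RNAi-labelled libraries, with 1 point per library and colours for the 4 groups. irg-4 stands at 328 and 376 in the RNAi-labelled libraries, against 34.9 and 12.33 in lem-2(tm1582), and mif-3 at 1.0 and 3.0, against 53.7 and 121.

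The 12 largest rises named here are those of called protein-coding genes with enough coverage and with groups that do not overlap, so neither the calls nor the gaps between groups are findings about them. The largest of them was that of irg-4. This gene, a secreted infection response gene of the intestine (chromosome IV, 12435833 to 12438236), had a coverage of 328 and 376 in the RNAi-labelled libraries, against 34.9 and 12.33 in the lem-2(tm1582) libraries. The log2 change was 4.01 ± 0.61 (limma, adjusted p = 0.0114), and it ranged from 3.29 to 4.72 as each of the 4 libraries was left out. irg-5, another infection response gene, had 21.7 and 30.6 in the RNAi-labelled libraries, against 2.0 and 2.0 in lem-2(tm1582). Both genes were low in all 7 other libraries, with no other value of irg-5 above 2.61 and none of irg-4 above 34.9.

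Among the 12 were 2 genes that respond to metals. numr-1, a nuclear protein induced by cadmium that has a near-identical neighbouring copy, had a coverage of 211 and 182 in the RNAi-labelled libraries, against 14.8 and 11.3 in lem-2(tm1582). Its log2 change was 3.82 ± 0.44 (limma, adjusted p = 0.00661). mtl-1, a metallothionein, had 80.3 and 116 in the RNAi-labelled libraries, against 11.4 and 6.78 in lem-2(tm1582), with a log2 difference of 3.31 ± 0.45 (limma, adjusted p = 0.00893). The cytochrome P450 gene cyp-35A2 had 70.6 and 43.7 in the RNAi-labelled libraries, against 5.22 and 6.78 in lem-2(tm1582). In the wild-type libraries numr-1 and cyp-35A2 were no higher than 7.44, and mtl-1 was 44.7 at most.

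The other genes among the 12 largest rises were pud-4 (log2 change 3.68) and pud-3 (3.48), which are abundant proteins raised when insulin signalling is low, col-176 (3.02), the C-type lectin clec-258 (3.02), the cuticle gene cuti-1 (2.85), the carboxylesterase cest-1.1 (2.80) and egl-1 (2.71). pud-3 had the highest coverage of them, at 2798 and 2505 in the RNAi-labelled libraries, against 240 and 234 in lem-2(tm1582). egl-1 (chromosome V, 14431308 to 14432359) encodes the BH3-only protein that starts programmed cell death, and its coverage was 27.8 and 36.5 in the RNAi-labelled libraries, against 4.11 and 3.94 in lem-2(tm1582). The rest of the core cell death pathway was looked at after that value was seen. The caspase gene ced-3 had 24.3 and 24.9 in the RNAi-labelled libraries, against 64.9 and 82.2 in lem-2(tm1582), and fell by 1.53 on the log2 scale (limma, adjusted p = 0.00661). ced-9, the Bcl-2 gene that holds the pathway back, fell by 1.34 (limma, adjusted p = 0.0392). The Apaf-1 gene ced-4 had a log2 change of -0.92 (limma, adjusted p = 0.075) and the p53 gene cep-1, which can turn on egl-1 in the germline, had -0.38 (limma, adjusted p = 0.322). Of these genes only egl-1 was called higher, and only ced-3 and ced-9 were called lower.

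Among the genes named by the same rule, the largest fall was that of mif-3, a macrophage migration inhibitory factor homologue on chromosome I (7312797 to 7313525). Its coverage was 1.0 and 3.0 in the RNAi-labelled libraries, against 53.7 and 121 in the lem-2(tm1582) libraries, a log2 change of -4.85 ± 0.48 (limma, adjusted p = 0.00646). It was also 61.1 or more in all 5 libraries of wild type and emr-1(gk119), so the RNAi-labelled libraries were the only ones in which the gene was near 0. Its relatives did not fall with it. mif-4 had 15.9 and 22.2 in the RNAi-labelled libraries, against 2.0 and 3.0 in lem-2(tm1582), and mif-2 had 76.6 and 76.5, against 31.9 and 33.1 (log2 changes 2.52 and 1.21; limma, adjusted p = 0.0085 and 0.0268). These 2 relatives were picked after the value of mif-3 was seen.

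Several other genes among the 12 largest falls are known to act in the oocyte or early embryo. They include cey-2, a Y-box RNA-binding protein, at 149 and 230 in the RNAi-labelled libraries, against 851 and 1074 in lem-2(tm1582). cbd-1, a chitin-binding protein of the eggshell, had 102 and 105 in the RNAi-labelled libraries, against 446 and 568 in lem-2(tm1582), and cpg-1, an eggshell chondroitin proteoglycan, had 150 and 148, against 622 and 792. The log2 changes of these genes were -2.36 ± 0.22, -2.27 ± 0.20 and -2.23 ± 0.16, in that order. puf-7, a Pumilio-family RNA-binding protein, grif-1 and cyp-31A2, a P450 that makes lipids of the egg's permeability barrier, also fell (log2 changes -2.22, -2.23 and -2.70). The remaining falls were those of col-135 (-3.0), the T-box factor tbx-9 (-2.36), ssp-37 (-2.35), the G-protein regulator rgs-8.1 (-2.34) and the glutamine synthetase gln-5 (-2.26). For ssp-37 the change hung on 1 library, as the RNAi-labelled values were 3.72 and 18.8, and it ranged from -3.39 to -1.32 as libraries were left out.

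**Figure D3:**
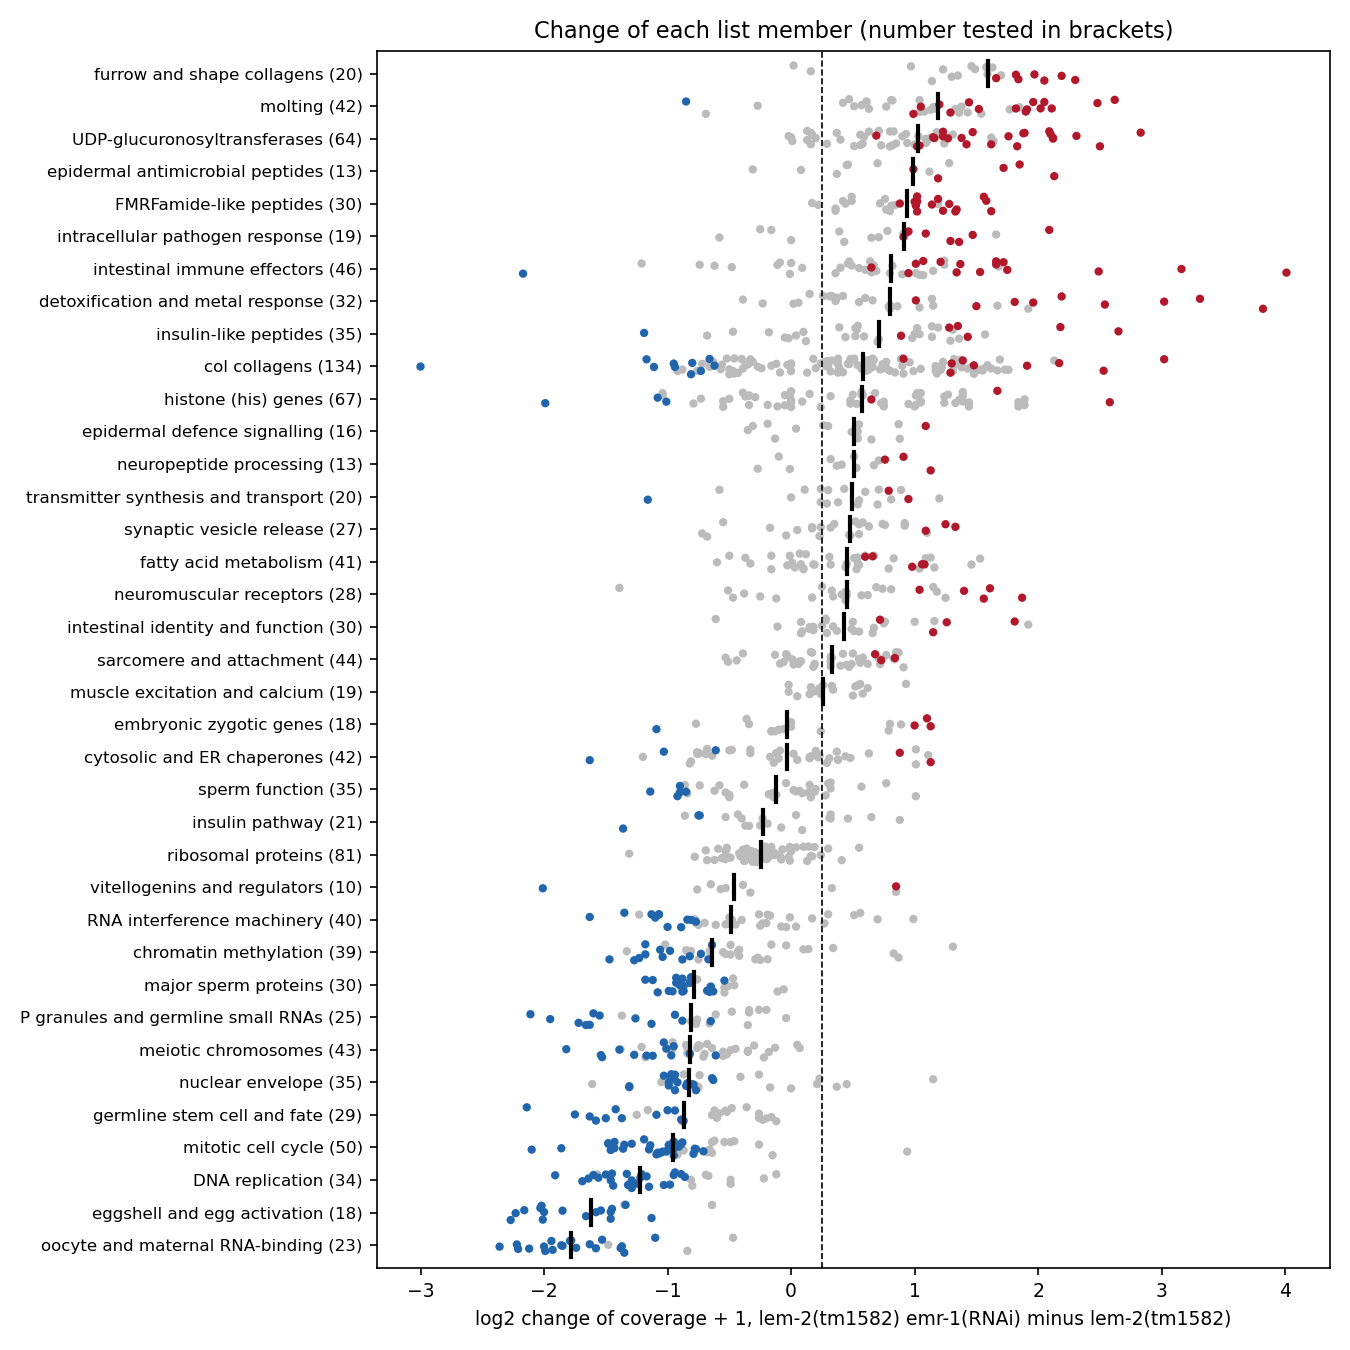
log2 change of coverage + 1 (horizontal axis, RNAi-labelled minus lem-2(tm1582) libraries) for every tested member of each gene list, 1 point per locus, red where called higher, blue where called lower and grey where not called. Black bars are list medians, ordered from the lowest at the bottom, and the dashed line is the median of all loci, 0.25. Oocyte and eggshell genes sit at the bottom with medians of -1.78 and -1.62, and furrow and body-shape collagens at the top with 1.59.

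In each group the members tested are those that passed the coverage minimum, and the shares called are to be read beside the 10.2% of loci called higher and 6.27% called lower overall. Of 23 genes for RNA-binding proteins of the oocyte and maternal RNA, 20 fell and none rose, with a median log2 change of -1.78. puf-5, which represses translation in growing oocytes, had a coverage of 86.5 and 88.8 in the RNAi-labelled libraries, against 354 and 415 in lem-2(tm1582), which is -2.12 ± 0.14 on the log2 scale (limma, adjusted p = 0.00376). pos-1, which patterns the early embryo, had 137 and 175 in the RNAi-labelled libraries, against 638 and 809 in lem-2(tm1582). All 23 genes had both RNAi-labelled libraries below both lem-2(tm1582) libraries, beside 21.8% of all loci.

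Of 18 genes for the eggshell and egg activation, 16 fell and none rose (median -1.62). cpg-2, the partner of cpg-1, had 157 and 184 in the RNAi-labelled libraries, against 684 and 852 in lem-2(tm1582). egg-5, a pseudophosphatase needed when the egg is activated and a close copy of egg-4, had 39 and 42.8 in the RNAi-labelled libraries, against 146 and 198. rme-2, the yolk receptor of the oocyte, had 41.6 and 43.7 in the RNAi-labelled libraries, against 176.5 and 173.1, a log2 change of -2.01 ± 0.14 (limma, adjusted p = 0.00376). In RNA of whole animals, fewer cells of a type and less RNA per cell cannot be told apart, here and for each tissue below. The summed coverage of the oocyte markers rme-2, oma-1, puf-5 and cpg-2 was 306 and 334 in the RNAi-labelled libraries, against 1269 and 1503 in lem-2(tm1582), and all 4 fell. The part of oocyte number in these results was not tested.

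Many genes of cell division were called lower. Of 34 DNA replication genes, 25 fell and none rose (median -1.22). rnr-2, the small subunit of ribonucleotide reductase, had 120 and 145 in the RNAi-labelled libraries, against 389 and 472 in lem-2(tm1582), and the replicative helicase subunit mcm-7 had 47.9 and 48.5, against 134 and 174. Of 50 mitotic cell cycle genes, 34 fell and none rose (median -0.96). cyb-3, a B-type cyclin, had 56.9 and 73.5 in the RNAi-labelled libraries, against 249 and 314 in lem-2(tm1582), and the Polo kinase gene plk-1 had 34.2 and 40.8, against 148 and 129. hcp-3, the centromeric histone, fell by 1.48 on the log2 scale (limma, adjusted p = 0.00661).

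Of 29 genes of germline stem cells and germ cell fate, 12 fell (median -0.87), and of 43 genes of meiotic chromosomes, 13 fell (median -0.82). No member of either list rose. sygl-1, a target of Notch signalling in the stem cell niche, had 14.8 and 22.2 in the RNAi-labelled libraries, against 56.8 and 71.4 in lem-2(tm1582). nos-2, a Nanos homologue of the primordial germ cells, had 10.5 and 17.1 in the RNAi-labelled libraries, against 60.3 and 65.1, and xnd-1, which spreads crossovers over the chromosomes, had 15.9 and 13.5, against 46.7 and 62.9. Of 25 genes of P granules and germline small RNAs, 12 fell and none rose (median -0.81). pgl-3, which builds the P granule, had 17.2 and 18.4 in the RNAi-labelled libraries, against 69.96 and 91.99, and the germline Argonaute wago-1 had 63.1 and 60.9, against 183 and 215. The summed coverage of the germline markers pgl-1, glh-1, him-3 and syp-1 was 134 and 131 in the RNAi-labelled libraries, against 234 and 292 in lem-2(tm1582), and 1 of the 4 fell by the test.

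Sperm genes were divided. Of 30 major sperm protein loci, which are near-identical copies whose reads cannot be split with certainty, 22 fell and none rose, with a median of -0.79. Their summed coverage was 16190 and 17010 in the RNAi-labelled libraries, against 29450 and 27930 in lem-2(tm1582). Of 35 other sperm genes, 5 fell and none rose (median -0.12). The major sperm proteins were thus mostly called lower, while most other sperm genes were not called.

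Some genes of the nuclear envelope, of RNA interference and of chromatin were called lower, and none was called higher. Of 35 nuclear envelope genes, 19 fell and none rose (median -0.83). They include the nuclear pore genes npp-7, npp-5 and npp-6 and sun-1, the germline SUN protein that links meiotic chromosomes to the cytoskeleton. sun-1 had 27.9 and 28.3 in the RNAi-labelled libraries, against 69.3 and 73.3 in lem-2(tm1582), and npp-7 had 32.3 and 29.2, against 69.2 and 87.04. Of 40 genes of the RNA interference machinery, 11 fell and none rose (median -0.49). hrde-1, a nuclear Argonaute of the germline, had 73.2 and 79.4 in the RNAi-labelled libraries, against 213 and 268 in lem-2(tm1582), and rde-4, which binds long double-stranded RNA for Dicer, had 39.97 and 62.64, against 112.1 and 109.2. Of 39 genes of histone and chromatin methylation, 13 fell and none rose (median -0.64), among them mes-4, an H3K36 methyltransferase of the germline, and set-25, an H3K9 methyltransferase (log2 changes -1.47 and -1.23). Many members of these lists are expressed in the germline, whose markers were lower in the same libraries as given above, and the part of that in these lists was not tested.

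Some genes of the cuticle and the molt were called higher, although most members of both lists were not called. The epidermis markers dpy-7, rol-6, wrt-2 and col-19 summed to 928 and 861 in the RNAi-labelled libraries, against 1057 and 1158 in lem-2(tm1582). Most of that sum is col-19, which fell, while dpy-7 and wrt-2 rose and rol-6 was not called. Of 20 furrow and body-shape collagens, 7 rose and none fell (median 1.59). dpy-7, a furrow collagen, had a coverage of 76.9 and 61.2 in the RNAi-labelled libraries, against 14.9 and 16.7 in lem-2(tm1582), which is 2.05 ± 0.26 on the log2 scale (limma, adjusted p = 0.0076). lon-3, a cuticle collagen that sets body length, had 315 and 242 in the RNAi-labelled libraries, against 50.4 and 60.4. Of 42 genes that act in the molt, 15 rose and 1 fell (median 1.19). wrt-10, a Hedgehog-related secreted protein, had 280 and 203 in the RNAi-labelled libraries, against 35.5 and 40.8, and the apical matrix proteins noah-1 and noah-2 rose with log2 changes of 2.05 and 2.11. The 1 that fell, named after its value was seen, was nhr-23, a nuclear receptor that drives molting and also sperm formation, at 17.3 and 19.3 in the RNAi-labelled libraries, against 33.5 and 34.1 in lem-2(tm1582).

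Few members of the large col family were called. Of 134 col loci that passed the coverage minimum (of 156), 9 rose (6.72%) and 10 fell (7.46%). These shares stand beside 10.2% and 6.27% of all loci. The median of 0.58 hides a range from -3.0 to 3.02. Those that fell include col-135 and col-19, the adult-specific collagen, which had 655 and 656 in the RNAi-labelled libraries, against 984 and 1083 in lem-2(tm1582) (log2 change -0.66; limma, adjusted p = 0.0366). The most covered col gene, col-124, had 1201 and 992 in the RNAi-labelled libraries, against 1734 and 1715, and did not pass the test. The summed coverage of the adult markers col-19, vit-2 and vit-6 was 3112 and 3692 in the RNAi-labelled libraries, against 4368 and 4692, and that of the molt markers mlt-10, nas-37 and nhr-23 was 116 and 95.6, against 65.4 and 70.1. Of the adult markers only col-19 was called, and it fell. No molt marker was called higher and nhr-23 fell, while mlt-10, at a log2 change of 1.54, was not called (limma, adjusted p = 0.0672). The part of developmental stage in the results was not tested.

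Some antimicrobial peptides of the epidermis were also called higher. Of 13 nlp and cnc peptides that passed the coverage minimum (of 17), 5 rose and none fell (median 0.99). cnc-3, a caenacin, had 98.4 and 82.8 in the RNAi-labelled libraries, against 19.0 and 20.6 in lem-2(tm1582), which is 2.13 ± 0.19 on the log2 scale (limma, adjusted p = 0.00516), and nlp-31 had 145 and 94.9, against 36.7 and 27.4. Of 16 genes of the signalling route to these peptides, only the p38 kinase gene pmk-1 passed the test, with 48.4 and 37.4 in the RNAi-labelled libraries, against 21.3 and 17.8.

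Some intestinal genes of defence and detoxification were called higher, and most members of each list were not called. Of 46 intestinal immune effectors, 15 rose and 1 fell (median 0.81). Beside irg-4 and irg-5 these include spp-5, a pore-forming saposin with 3257 and 2575 in the RNAi-labelled libraries, against 1039 and 971 in lem-2(tm1582), and dod-24, with 37.8 and 34.1, against 6.33 and 4.89. The 1 list member that fell, the C-type lectin clec-87, had 199 and 251 in the RNAi-labelled libraries, against 892 and 1132. Its log2 change of -2.17 lies by those of the eggshell genes cpg-1 (-2.23) and cpg-2 (-2.16). The tissue in which it is expressed was not tested. Of 19 genes of the intracellular pathogen response, which worms mount against microsporidia and viruses, 8 rose and none fell (median 0.91). pals-26 had a log2 change of 2.09, and cul-6, a cullin of its ubiquitin ligase, had 42.6 and 40.9 in the RNAi-labelled libraries, against 15.8 and 15.4 in lem-2(tm1582).

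Of 64 UDP-glucuronosyltransferase genes, which attach sugars to foreign compounds, 23 rose and none fell (median 1.03). ugt-33 had 14.8 and 15.0 in the RNAi-labelled libraries, against 1.5 and 1.0 in lem-2(tm1582), and ugt-5 had 68.3 and 60.2, against 10.1 and 10.8. Of 32 other genes of detoxification and metal response, 9 rose and none fell (median 0.80), including the glutathione transferase gst-10 at 781 and 618 in the RNAi-labelled libraries, against 222 and 175. Of 30 genes of intestinal identity and function, 4 rose (13.3%, median 0.43), and of 41 genes of fatty acid metabolism, 5 rose (12.2%, median 0.45). Both shares are near the 10.2% of all loci called higher. The summed coverage of the gut markers elt-2, ges-1, act-5 and vha-6 was 1119 and 1050 in the RNAi-labelled libraries, against 1073 and 1097, so the groups overlapped and no marker was called.

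Of 42 cytosolic and endoplasmic reticulum chaperones and their regulators, 2 rose (4.76%) and 3 fell (7.14%), with a median of -0.03. These shares stand beside 10.2% and 6.27% of all loci, and the share that fell is near that of all loci. hsp-90 had 780 and 771 in the RNAi-labelled libraries, against 1448 and 1724 in lem-2(tm1582), and sip-1, a small heat shock protein of the embryo, had 859 and 943, against 2384 and 3279. The other, hsp-4, the BiP homologue that marks stress in the endoplasmic reticulum, was named after its value was seen and fell to 122 and 131 in the RNAi-labelled libraries, against 194 and 191 (log2 change -0.61; limma, adjusted p = 0.036). The 2 that rose were dnj-27 and hsp-12.1 (log2 changes 1.13 and 0.88). Of 81 ribosomal protein genes, none was called (limma; median -0.24).

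Genes of signalling peptides were called higher in part. Of 30 FMRFamide-like peptide genes (flp), 15 rose and none fell (median 0.94), and the change was above 0 for all 30, beside 62.4% of all loci. flp-7, which acts on fat metabolism, had 39 and 31.2 in the RNAi-labelled libraries, against 10.4 and 10.9 in lem-2(tm1582), which is 1.62 ± 0.26 on the log2 scale (limma, adjusted p = 0.0122). flp-1 had 232 and 181 in the RNAi-labelled libraries, against 85.9 and 92.8. Of 35 insulin-like peptide genes, 6 rose and 1 fell (median 0.71), and ins-11, which worms raise after infection, had 31.8 and 29.8 in the RNAi-labelled libraries, against 4.17 and 3.94.

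Of 27 genes of synaptic vesicle release, 3 rose (median 0.48), namely the synaptotagmin snt-1, the syntaxin unc-64 and the calcium channel subunit unc-36. Of 28 receptors and helpers of the neuromuscular junction, 5 rose and none fell (median 0.45). acr-16, the nicotine-sensitive acetylcholine receptor of muscle, had 15.6 and 12.2 in the RNAi-labelled libraries, against 4.92 and 3.0 in lem-2(tm1582), and ric-3, a chaperone of acetylcholine receptors, had 95.6 and 73.5, against 36.6 and 26.6. Of 13 genes of neuropeptide processing, 3 rose and none fell (median 0.51). Of 20 genes of transmitter synthesis and transport, 2 rose (10%) and 1 fell (5%), with a median of 0.49, beside 10.2% and 6.27% of all loci. The summed coverage of the neuron markers rab-3, unc-104, snb-1 and unc-31 was 166 and 221 in the RNAi-labelled libraries, lower than in both lem-2(tm1582) libraries, of which replicate 1 had 263 and replicate 2 slightly less. Most of that sum is snb-1 (log2 change -0.55), whereas unc-31, unc-104 and rab-3 had log2 changes of 0.37, 0.55 and 0.48. The rab-3 values overlapped, with 2.0 and 22.5 in the RNAi-labelled libraries, against 11.1 and 2.0 in lem-2(tm1582). None of the 4 was called. The shares called among release genes and junction receptors, 11.1% and 17.9%, stand beside 10.2% of all loci. After repeated quantile normalization the medians of the release and receptor lists were 0.14.

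In muscle, 3 of 44 genes of the sarcomere and its attachments rose (6.82%; median 0.33), and none of 19 genes of muscle excitation and calcium handling was called (limma; median 0.26, beside 0.25 for all loci). The 3 that rose were unc-98, pat-6 and alp-1, which sit at the dense body or M-line, with log2 changes of 0.84, 0.73 and 0.68. pat-6 had 170 and 144 in the RNAi-labelled libraries, against 95.8 and 91.7. The body wall muscle markers unc-54, myo-3 and unc-15 summed to 924 and 685 in the RNAi-labelled libraries, against 728 and 639. Those sums overlap, and no marker was called. The pharyngeal muscle markers myo-1, myo-2 and tnc-2 summed to 345 and 199 in the RNAi-labelled libraries, against 151 and 130, and none was called.

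Few histone loci, whose copies share sequence, were called, with 3 higher and 3 lower of 67 (median 0.57). That is 4.48% each way, beside 10.2% and 6.27% of all loci. Of 18 zygotic genes of the early embryo that passed the coverage minimum (of 30), 3 rose (16.7%) and 1 fell (5.56%), with a median of -0.03. Among the 3 was cnd-1, near the lowest coverage tested, at 1 and 1 in the RNAi-labelled libraries, against 0 and 0 in lem-2(tm1582). The summed coverage of the embryo markers med-1, end-1, end-3, pes-10 and tbx-37 was 6.0 and 2.0 in the RNAi-labelled libraries, against 4.0 and 2.0.

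**Figure D4:**
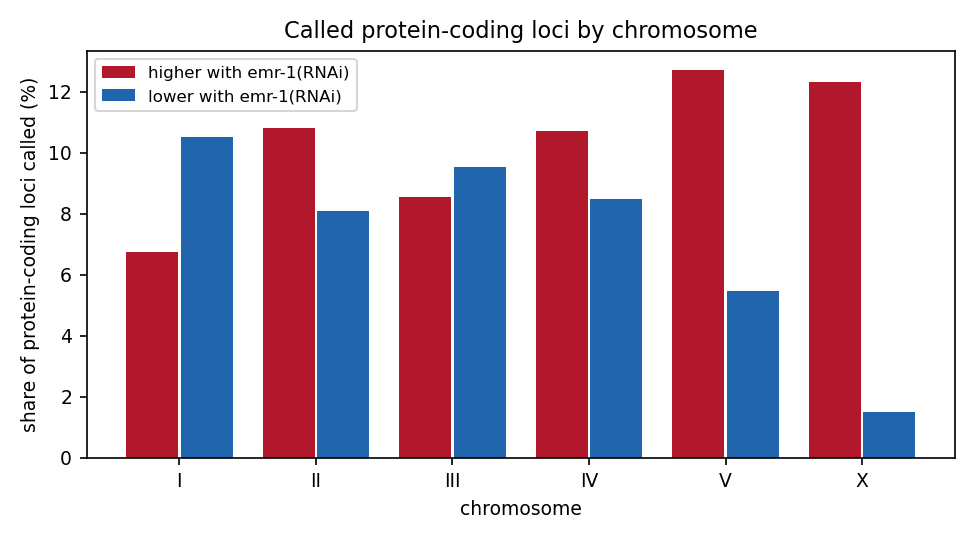
Share of tested protein-coding loci called higher (red) and lower (blue) in the RNAi-labelled libraries, in percent (vertical axis from 0), for each nuclear chromosome. On X 288 loci were called higher and 35 lower, and on chromosome I 172 and 267.

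The called loci were spread unevenly over the chromosomes. Among protein-coding loci, 288 of 2334 on the X chromosome were called higher and 35 (1.5%) lower. On chromosome I, 172 of 2551 were called higher and 267 lower, which is 6.74% and 10.5%, and over all chromosomes the shares were 10.4% and 7.23%. The median log2 change was highest on X (0.40) and V (0.33) and lowest on I (0.01) and III (0.05). After repeated quantile normalization these medians were 0.15 on X, 0.10 on V, -0.17 on I and -0.13 on III. The lists of germline genes above have 77 tested loci on chromosome I and 3 on X, and how far this bears on the chromosome shares was not tested. With each nuclear chromosome cut into 3 equal parts, the median was higher in the middle part than in the outer ones on all of them, with 0.45 against 0.29 on V and 0.06 against 0.04 on III.

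Length and coverage also moved with the calls. Of the 4079 protein-coding loci with the shortest transcripts (up to 832 bases) 11.5% were called higher and 3.09% lower, and of the 4075 with the longest (over 1919 bases) 7.36% and 13.3%. Of the 4075 loci with the highest coverage 11.6% and 11.2% were called, and of the 4076 with the lowest 4% and 0.343%. The part of transcript length and of coverage in the gene groups was not tested.

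**Figure D5:**
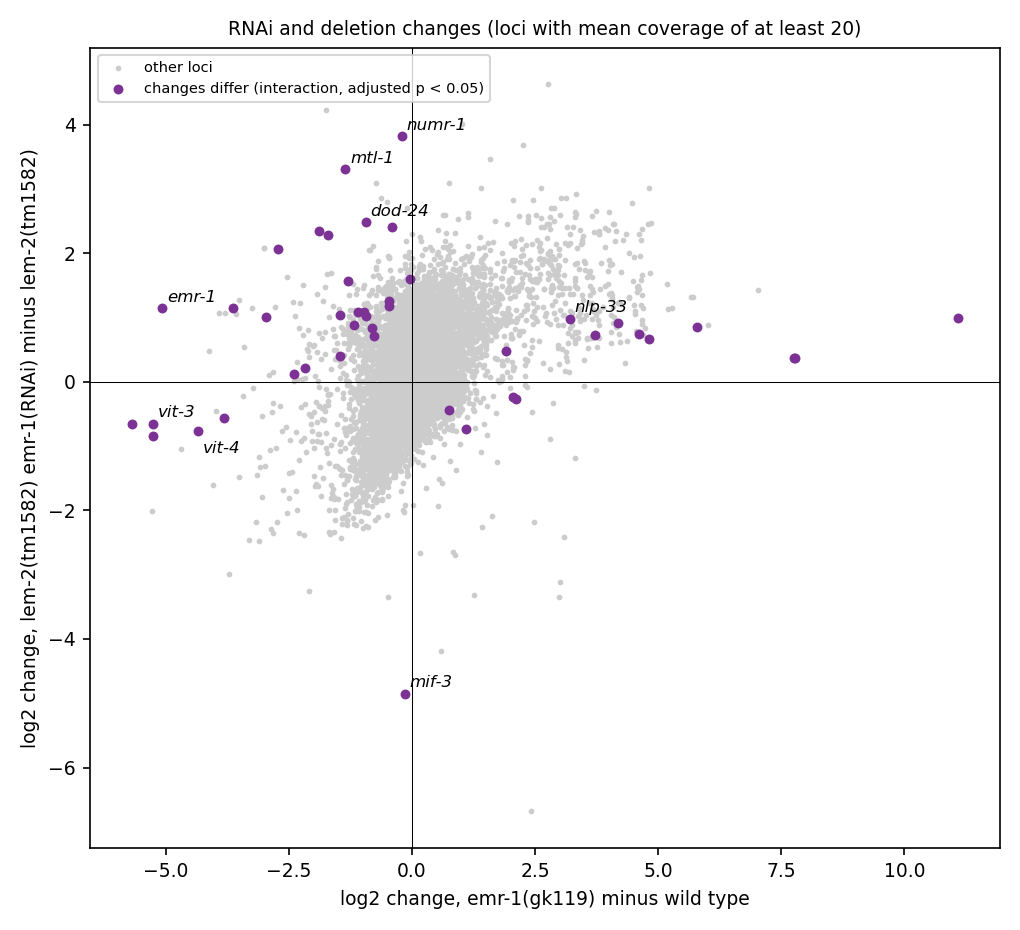
log2 change in emr-1(gk119) minus wild type (horizontal) and in RNAi-labelled minus lem-2(tm1582) libraries (vertical) for 8324 loci whose coverage averaged 20 or more in the 4 libraries compared, 1 point per locus. Purple marks loci whose 2 changes differ in limma's interaction term. Across these loci Pearson's r is 0.51, numr-1 and mtl-1 sit high at a deletion change near or below 0, and vit-3 and vit-4 sit far to the left.

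The change with emr-1 RNAi can be set beside that of the emr-1 deletion, since the 2 comparisons share no library. Both were tested in the same limma fit, however, so each locus has the same residual spread in both tests. That can raise the numbers of loci called in both. The comparisons also differ in 2 ways at once, in RNAi or deletion and in a lem-2(tm1582) or wild-type background. These cannot be told apart where the changes differ. In emr-1(gk119) against wild type 2025 loci were called higher (10.3%) and 1227 lower (6.27%). Across the 8324 loci whose coverage averaged 20 or more, the 2 log2 changes had a Pearson r of 0.51, given as a description, since loci are not independent and all libraries were normalized together. Of the 1227 loci called lower with RNAi, 94.0% had a negative change in the deletion mutant, against 48.2% of all loci. Of the 1994 called higher, 78.8% had a positive change, against 51.7% of all loci. Loci called higher in both numbered 704, which is 35.3% of those higher with RNAi and 34.8% of those higher in the deletion mutant, and 477 were called lower in both (38.9% of each list).

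The groups differed in how close the 2 changes were. The oocyte list had medians of -1.78 with RNAi and -1.26 with the deletion, and DNA replication genes -1.22 and -0.63. Furrow and body-shape collagens had 1.59 with RNAi and 3.18 with the deletion, from unlike starting levels. Their summed coverage was 5709 and 4103 in the RNAi-labelled libraries, against 1946 and 1793 in lem-2(tm1582). In emr-1(gk119) it was 4376 and 7316, against 597, 612 and 167 in wild type. The immune effectors had medians of 0.81 with RNAi and -0.14 with the deletion, and the intracellular pathogen response 0.91 and -0.02. The flp peptides had 0.94 and 0.35, and the major sperm proteins -0.79 and 0.03. The differences between these medians were not tested as groups.

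Gene by gene, limma's interaction term called 51 loci with a more positive change under RNAi (0.261% of loci) and 36 with a more negative one (0.184%), while 3710 had an unadjusted p under 0.05. These counts rest on single libraries of every group. Without RNAi-labelled replicate 1 or 2 they were 7 and 12 or 5 and 5, and without lem-2(tm1582) replicate 1 or 2 they were 2 and 7 or 4 and 8. Without emr-1(gk119) replicate 1 or 2 they were 29 and 19 or 6 and 13. Without wild-type replicate 1, 2 or 3 they were 5 and 11, 11 and 18 or 26 and 34. Of these 87 loci, 45 were called with the deletion alone, 15 with RNAi alone, 21 in both with opposite signs and 6 in both with the same sign. The genes of defence and metal response numr-1, mtl-1, irg-5 and dod-24 belong to the 51. In this term the use of RNAi and the lem-2(tm1582) background cannot be told apart. In the deletion mutant mtl-1 had a coverage of 7.72 and 18.6, against 29.2, 25.8 and 44.7 in wild type, whereas it was 80.3 and 116 in the RNAi-labelled libraries. Among genes chosen after their values were seen, cysl-2 and ethe-1, which handle hydrogen sulfide, rose with RNAi (log2 changes 1.09 and 1.09) and fell in the deletion mutant (-1.09 and -0.98).

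The vitellogenins are the yolk proteins made by the adult intestine. vit-3 had 204 and 355 in the RNAi-labelled libraries, against 398 and 450 in lem-2(tm1582), which did not pass the test, and 32.5 and 22.5 in emr-1(gk119), against 1051, 1005 and 1157 in wild type. All 6 vit genes had a log2 change between -0.76 and -0.33 with RNAi, none of which was called by limma, and between -5.25 and -2.26 with the deletion. The interaction called vit-1, vit-3 and vit-4, with the same sign as for the defence genes. These genes are close copies, so their reads may be shared. The list with their receptor and regulators had 10 members, of which rme-2 fell and the transcription factor pqm-1 rose, with 75.6 and 64.5 in the RNAi-labelled libraries, against 38.8 and 37.8. Of the 13 epidermal peptides the interaction called nlp-33 alone, with a more negative change under RNAi. nlp-33 had 400 and 383 in the RNAi-labelled libraries, against 198 and 196 in lem-2(tm1582), and 601 and 688 in emr-1(gk119), against 70.7, 62.6 and 73.5 in wild type.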

How the data were processed

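Poly(A) RNA of whole animals was sequenced in 9 libraries. The authors aligned reads with TopHat (version not given in the sources used here), took the median read coverage over the exons of each transcript and quantile normalized exons across libraries. The deposited value is this coverage signal, not a read count, so sequencing depth is not known and no counting interval is given. Libraries were pooled in sets of 3 before sequencing, and which shared a pool is not stated. A fit of limma 3.58.1 in R 4.3.3 to log2(coverage + 1) used all 9 libraries in 4 groups, a variance trend and 5 residual degrees of freedom, for rows with a mean coverage of at least 1. Calls have a two-sided Benjamini-Hochberg adjusted p under 0.05 over all rows. Fold changes are on the log2(coverage + 1) scale, which understates those of low genes. The fit was tested on simulated data. Tables and figures were made with python 3.11.15, pandas 2.3.3, scipy 1.17.1 and matplotlib 3.10.9.

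Genes named are those of EMR-1 and its partners, the 12 largest rises and 12 largest falls among called protein-coding genes with a mean coverage of at least 10 in the 4 libraries and groups that do not overlap, and, for each of 37 lists, up to 4 called members with the largest change and the 2 most covered. The members and lists were chosen with earlier results of these data known. Of the deposited transcripts 99.1% were found in the WBcel235 annotation. The result of 1 list, of insulin pathway genes, is not reported here.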

Additional observations from a re-analysis of the deposited data

Results flagged for a closer look

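For 12 genes named above the change with emr-1 RNAi in lem-2(tm1582) differed from the change of emr-1(gk119) against wild type in limma's interaction term (Benjamini-Hochberg adjusted over all loci). The difference of log2 changes was positive for emr-1 itself (6.21), which is nearly absent from the deletion mutant, and for mtl-1 (4.65), numr-1 (4.03), irg-5 (3.64), dod-24 (3.42), cysl-2 (2.18) and ethe-1 (2.06). It was also positive for the yolk genes vit-3 (4.60), vit-4 (3.58) and vit-1 (3.25), whose coverage was far below wild type in emr-1(gk119). It was negative for mif-3 (-4.71), which was near 0 in the RNAi-labelled libraries alone, and for nlp-33 (-2.22), which was higher in both comparisons. Adjusted p-values of these 12 ran up to 0.0488, that of numr-1. The term cannot tell RNAi against deletion apart from the lem-2(tm1582) against the wild-type background.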

How the results depend on the processing

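The counts of calls for the RNAi comparison changed most when 1 library was left out, and the interaction counts when no coverage minimum was set. With 1 library left out, transcripts called higher ranged from 7 to 2932 and lower from 13 to 2025, loci higher from 0 to 2251 and lower from 0 to 1411, and interaction loci from 2 to 29 more positive and from 5 to 34 more negative. With only the 4 compared libraries in the fit, 840 transcripts and 557 loci were called lower. The interaction counts, more positive and more negative, were 196 and 101 with a coverage minimum of 5, 313 and 147 with none, 78 and 58 with a pseudocount of 5, and 142 and 116 after repeated quantile normalization. The causes were not tested. Replicate numbers did not pair the libraries (correlation of replicate differences 0.01 between the 2 groups). With the replicate block, limma called 2151 transcripts higher and 1284 lower, 1655 loci higher and 854 lower, and 4 and 10 interaction loci.

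No named gene that was called changed direction under any alternative. Repeated quantile normalization turned the median of all loci to -0.01 and the uncalled markers elt-2 to -0.11, unc-15 to -0.04, vha-6 to -0.01 and end-3 to -0.26. As single libraries were left out, unc-15 ranged from -0.02 (without lem-2(tm1582) replicate 2) to 0.17, unc-54 from -0.01 (without RNAi-labelled replicate 1) to 0.64 and rab-3 from -1.0 (without RNAi-labelled replicate 2) to 1.96. end-3, near the lowest coverage tested, was at 0.00 with only the 4 libraries and in each fit that left 1 of them out. Of the 129 named genes with a fitted change 95 were called, and all 95 lost the call without RNAi-labelled replicate 1, as they did without lem-2(tm1582) replicate 2.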
